A study of Mus musculus with 3 samples.

Results

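The genes described here are 10 liver genes of blood clotting and its control, namely Fga, Fgb, Fgg, F2, F5, F7, F10, Proc, Serpinc1 and Plg. They were taken by symbol from the protein-coding genes of the GENCODE M1 annotation of the mouse NCBI37/mm9 genome, and all 10 of 10 were found among 22367 genes. The data came from livers of male wild type C57BL/6 mice, 3 months old according to the labels, with no treatment or mutation named, and comprised 1 RXRα ChIP library, 1 input library and 1 RARα ChIP library. There were no replicates, so no difference described here has an estimate of the variation between mice, and intervals are 95% exact Clopper-Pearson intervals that cover counting error only. The RXRα track held 9999939 reads and the input track 9999292 reads. The RARα data are a list of 143280 peaks with scores from 5 to 382, from which no depth can be read. The paper does report a depth for RARα, and it reports more uniquely mapped RXRα reads than the track holds. The intervals and the statements on depth therefore describe the tracks and not the full RXRα library.

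Coagulation is a chain of plasma proteases that ends with thrombin, which cuts fibrinogen into the fibrin of a clot. Most of these proteins are made by hepatocytes and secreted, and inhibitors from the same cells keep the chain in check. RARα, the receptor of retinoic acid, binds DNA as a heterodimer with RXRα, typically at direct repeats of the half-site AGGTCA. The spacing between the half-sites gives the repeat its name, such as DR1 for a spacing of 1 base and DR2 for a spacing of 2 bases. RXRα serves several other nuclear receptors in the same way, and a ChIP signal is a measure of binding and not of gene expression.

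In these livers, each of the 10 coagulation genes had at least 1 RARα peak with a score greater than 20 no more than 10 kb from the transcriptional start site (TSS), compared to 52.2% of all protein-coding genes. Each of the 10 also had an RXRα region within 10 kb, compared to 39.8% of all genes, where a region is a stretch of 32 bp bins in which RXRα reached 20 times the input, taken as the local or the mean input, whichever was higher. Co-localized peaks, in which a RARα peak and an RXRα region overlapped by at least 25% of the narrower interval, were present at 10 of 10 genes, compared to 23.5% of all genes. Within 1 kb from the TSS, the counts were 10 for RARα, 10 for RXRα and 9 for co-localized peaks, compared to 40.9%, 21.6% and 15.8% of all genes, and the remaining gene was Serpinc1, which encodes antithrombin.

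The sequences just upstream of 6 of these genes are given first, because RXRα signal was found here at every member and these 6 hold a motif match. They run from 120 bases before the TSS through the first 10 transcribed bases on NCBI37. In the first 4, capitals mark a match to the motif of the hepatocyte factor HNF1 with at most 2 mismatches. In F2 they also mark, further upstream, a DR2-like repeat, which is a pair of AGGTCA half-sites read on either strand with at most 2 mismatches in all.
Fga, chr3:82829955-82830084, plus strand: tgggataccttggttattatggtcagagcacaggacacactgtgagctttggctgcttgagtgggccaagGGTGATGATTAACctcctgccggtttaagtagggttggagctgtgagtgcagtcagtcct
Fgb, chr3:82853716-82853845, minus strand: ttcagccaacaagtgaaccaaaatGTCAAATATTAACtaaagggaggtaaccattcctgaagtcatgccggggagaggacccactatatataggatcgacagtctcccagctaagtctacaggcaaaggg
F2, chr2:91476562-91476691, minus strand: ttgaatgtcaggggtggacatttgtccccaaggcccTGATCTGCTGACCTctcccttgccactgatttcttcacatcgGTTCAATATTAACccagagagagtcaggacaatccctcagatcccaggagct
Plg, chr17:12571355-12571484, plus strand: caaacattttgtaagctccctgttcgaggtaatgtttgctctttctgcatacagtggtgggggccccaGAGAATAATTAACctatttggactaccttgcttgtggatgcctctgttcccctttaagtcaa
In the next pair, capitals mark a DR2-like repeat that spans the TSS of Fgg and a DR1-like repeat from -34 to -22 of F7.
Fgg, chr3:82811661-82811790, plus strand: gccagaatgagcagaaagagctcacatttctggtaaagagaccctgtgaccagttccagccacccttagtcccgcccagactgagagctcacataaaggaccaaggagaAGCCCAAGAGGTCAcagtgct
F7, chr8:13025914-13026043, plus strand: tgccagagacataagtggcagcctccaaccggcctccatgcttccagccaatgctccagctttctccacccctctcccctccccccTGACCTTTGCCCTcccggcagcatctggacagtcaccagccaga

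The other sequences shown are distal sites with RXRα signal in which a repeat of half-sites was found. The first lies between Fgg and Fga and holds, in capitals, an exact DR1 and, next to it, a DR1-like repeat. The second lies upstream of F2 and holds an exact DR2. The last lies in an intron of F10 and holds 3 DR4-like repeats, with half-sites 4 bases apart, in a tandem array in which each copy begins 33 bp after the previous one.
Between Fgg and Fga, chr3:82820993-82821064, minus strand: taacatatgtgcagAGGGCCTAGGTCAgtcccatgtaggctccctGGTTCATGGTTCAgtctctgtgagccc
Upstream of F2, chr2:91481614-91481655, minus strand: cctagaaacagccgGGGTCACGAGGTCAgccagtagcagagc
F10 intron, chr8:13050926-13051035, plus strand: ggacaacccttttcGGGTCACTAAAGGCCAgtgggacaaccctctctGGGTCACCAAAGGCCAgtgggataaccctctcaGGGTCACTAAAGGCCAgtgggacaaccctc

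The fibrinogen chains, from which thrombin makes fibrin, are encoded by Fga, Fgb and Fgg next to each other on chromosome 3. They had the highest RARα scores of the 10 genes. The top peak of Fgg (chr3:82811131-82812011, summit in the UTR at +24) had a score of 194. That of Fga (chr3:82829711-82830601, summit in the UTR at +60) had a score of 182, and that of Fgb (chr3:82853311-82854101, summit in the UTR at +20) had a score of 148. These scores were higher than those of 99.5%, 99.4% and 98.6% of all genes, whose median top score was 23. All 3 peaks lay over the TSS and co-localized with RXRα. Within 10 kb, 10 of the 18 RARα peaks of Fga, 4 of the 19 of Fgb and 7 of the 17 of Fgg were co-localized, but the windows of Fgg and Fga share 3 RARα peaks and 3 RXRα regions.

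At the TSS of the fibrinogen genes, RXRα was about 10 times input. Within 1 kb of the Fga TSS there were 289.1 RXRα reads against 25 input reads, a ratio of 11.6 (7.67 to 18.2). The corresponding reads were 214.2 and 22 for Fgb, a ratio of 9.73 (6.26 to 15.8), and 160.4 and 15.1 for Fgg, a ratio of 10.6 (6.28 to 19.5). The 3 intervals overlap one another, so the order of the 3 chains was not resolved at this depth. The highest RXRα signal of Fga lay at -171 with 108 reads in the bin and 3 in the input, that of Fgb at -179 with 95 reads against 1, and that of Fgg at -309 with 67 reads against 0. The highest signals of Fga and Fgb therefore lay less than 200 bp upstream of the TSS, and that of Fgg further upstream with a smaller maximum at the TSS itself.

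F7 encodes factor VII, which starts the chain together with tissue factor. It had 1 RARα peak within 10 kb, the fewest of the 10 genes, which covered the TSS (chr8:13025411-13026321) with a score of 33. Both RXRα regions of the gene, at -482 and -82 with the same ratio of 39.0 in their highest bin, lay under this peak. There were 161.3 RXRα reads against 20.3 input reads within 1 kb, a ratio of 7.94 (5.04 to 13.5). The DR1-like repeat printed above lies within the second region, 38 bp from the centre of its bin with the highest ratio. The bin with the most RXRα reads within 1 kb, 43, is centred at -34, where the repeat begins.

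F10 encodes factor X, which converts prothrombin to thrombin, and its start lies downstream of F7 on the same strand. It was the exception in where its RXRα signal peaked near the TSS. The highest bin within 1 kb lay at +500 with 84 reads against 6 in the input, inside the gene. The other 9 genes had their highest bin within 1 kb upstream of the TSS. The top RARα peak of F10 (chr8:13037471-13037961, summit at +457 in the UTR, score 60) coincided with this maximum and had an RXRα enrichment of 10.7 over input. A weaker RXRα maximum just upstream of the TSS reached 28.0 times input at -76. The ratio within 1 kb was 6.38 (4.45 to 9.38), with 223.3 RXRα reads and 35 input reads, the most input of the 10 genes. By ratio, the strongest RXRα region of F10 lay much deeper, at +13732 in an intron (chr8:13050977-13051104). Its bin of highest ratio had 76 RXRα reads and 0 input reads, or 126.1 times the mean input. This region holds part of the tandem DR4-like array, has no RARα peak with a score greater than 20, and is nearer to the TSS of Proz, which encodes protein Z.

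F5 encodes factor V, the cofactor of factor X. Its RARα peaks were low, with a top score of 42 at -364 (chr1:166081381-166081851), and both this peak and the adjoining one over the TSS, with a score of 30, co-localized with the same RXRα region. There were 118.4 RXRα reads against 20.1 input reads within 1 kb, a ratio of 5.90 (3.65 to 10), and the highest bin at the start held 33 reads, the lowest maximum of the 10 genes. By contrast, an intronic region at +6943 (chr1:166088833-166088992) had 69 RXRα reads and 0 input reads in its highest bin, or 114.5 times the mean input. This region, the strongest of F5 by ratio, had no RARα peak with a score greater than 20. Further RXRα regions at +56319 and +56751 lie in the gene but nearer to the TSS of Slc19a2, a thiamine transporter, and a RARα peak at -2494 with a score of 21 lies in Selp, the gene of P-selectin.

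F2 encodes prothrombin. It had 3 RARα peaks, and the strongest, with a score of 87, had its summit at -24 (chr2:91476341-91477061) and an RXRα enrichment of 12.1 over input. The next peak, at -679 with a score of 27, had an enrichment of 14.1. Both co-localized with an RXRα region, and the RXRα profile accordingly showed a pair of maxima of similar height upstream of the TSS, with 80 reads in the bin at -53. Within 1 kb there were 219.5 RXRα reads against 21.3 input reads, a ratio of 10.3 (6.69 to 17.3). The region at -4997, whose edge the exact DR2 overlaps, reached 44.8 times the mean input, in a bin with 27 RXRα reads and 0 input reads. It had no RARα peak with a score greater than 20.

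Proc encodes protein C, which after activation by thrombin inactivates factor V, and Serpinc1 encodes antithrombin, the inhibitor of thrombin and factor X. At Proc, a RARα peak with a score of 23 covered the TSS and co-localized with an RXRα region at -24, where the highest bin held 91 RXRα reads against 3 in the input. The ratio within 1 kb was 8.12 (4.99 to 14.2), from 147 and 18.1 reads. The top RARα score of Proc, 37 at +1304, and its highest RXRα ratio, 78.0 at -6024, belonged to sites without a co-localized partner. The bin of that ratio held 47 RXRα reads and 0 input reads, so the ratio is to the mean input. Thus at Proc the top RARα peak was not the shared one, and for RXRα the strongest site depended on the measure. The shared region at -24 held 68.8 RXRα reads against 2.4 in the input, and the region at -6024 held 38 against 0.4.

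Serpinc1 had the lowest ratio at the TSS, 3.75 (2.5 to 5.92), with 110.1 RXRα reads and 29.4 input reads. A RARα peak with a score of 24 lay at -32, and an RXRα region at -321 overlapped it by less than 25%. This region reached 59.7 times the mean input, in a bin with 36 RXRα reads and 0 input reads. The co-localized sites lay inside this gene. The top RARα peak, with a score of 44 at +8928 (chr1:162917011-162917851), held 259.1 RXRα reads against 16.7 input reads and co-localized with an RXRα region. This region held 173.8 RXRα reads against 8.2 input reads. Its highest ratio, 61.4 times the mean input, came from a bin with 37 RXRα reads and 0 input reads. Peaks at +1518 and +2073, both with a score of 24, also co-localized with RXRα regions. The first region reached 31.5 times the mean input, in a bin with 0 input reads, and the second 54.0 times input.

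Plg encodes plasminogen, the precursor of the protease that dissolves fibrin. Within 10 kb, 6 of its 9 RARα peaks were co-localized, and the scores of these 9 peaks ran from 24 to 48. The RXRα region just upstream of the TSS (chr17:12570881-12571424) reached 96.2 times the mean input, in a bin with 58 RXRα reads and 0 input reads. The ratio within 1 kb was 8.94 (6.10 to 13.7), from 260.2 and 29.1 reads. A higher RXRα maximum, with 145 reads in the bin against 2 in the input, lay in an intron at +1965 under a RARα peak with a score of 31. Towards the edge of the window, the RARα peak at +9760 had a score of 36 with RXRα at 35 times input, and the next one, at +10030 and so outside 10 kb, had a score of 22 with RXRα at 2.01 times input.

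**Figure D1:**
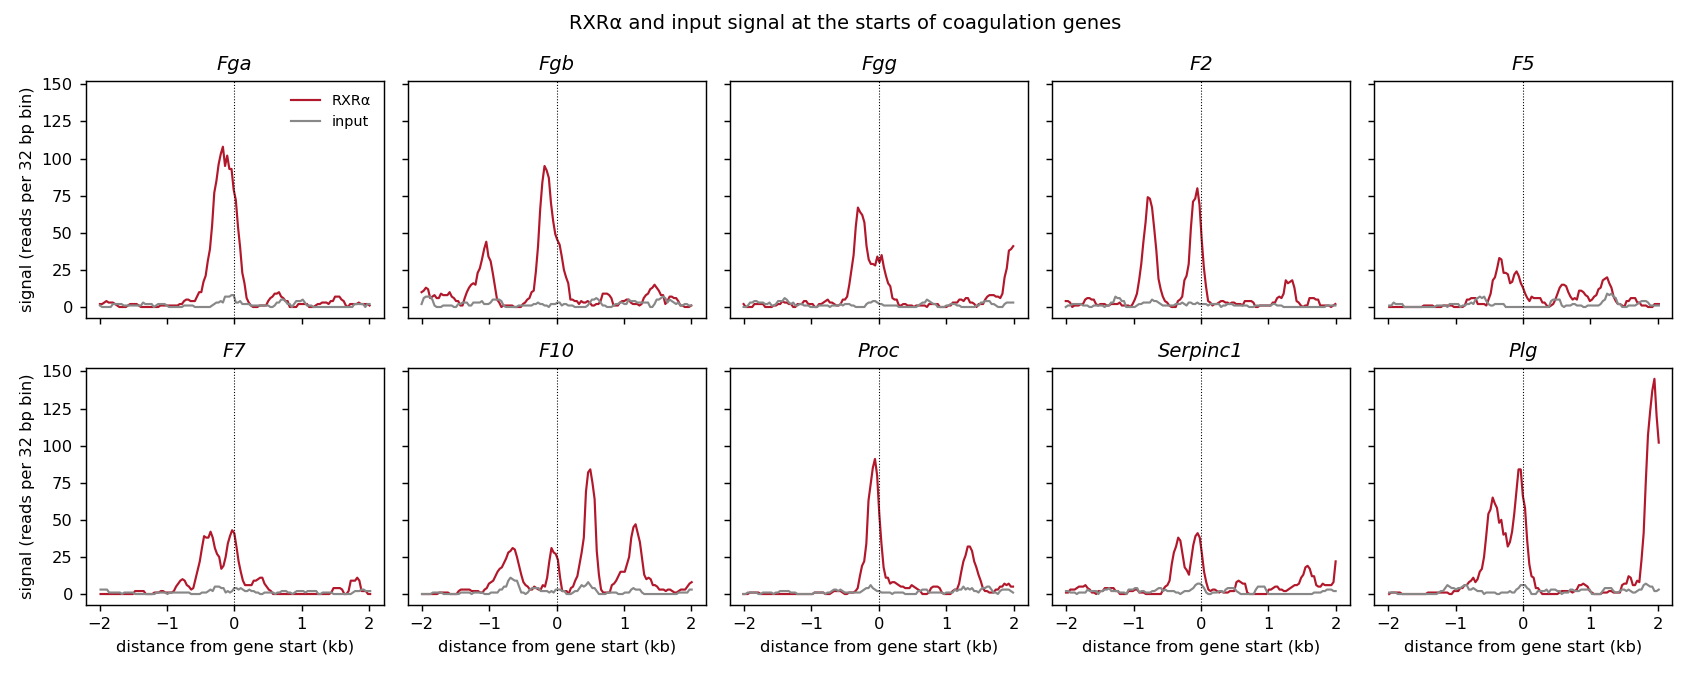
RXRα (red) and input (grey) signal in reads per 32 bp bin, from 2 kb before to 2 kb after the TSS of each of the 10 genes, read in the direction of transcription, with 1 library each. In 9 of 10 genes the highest RXRα bin within 1 kb lies before the dotted line of the TSS, and in F10 it lies at +500, while the input within 1 kb stays at or below 11 reads per bin. The position of the highest bin was not determined for other genes.

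At the starts of 9 of the 10 genes, the highest RXRα bin within 1 kb lay on the upstream side, the exception being F10. In every member, the midpoint of an RXRα region lay within 500 bp upstream of the TSS, compared to 11.1% of all protein-coding genes. In 1 member, Fgg, a region midpoint lay within 500 bp downstream, compared to 7.49% of all genes. The median position of the highest RXRα bin was -61.5 bp. The position of the highest bin was determined for the 10 genes only. Whether it differs from that at other genes was therefore not tested. Summed over the 10 starts, there were 1904 RXRα reads against 235 input reads, a ratio of 8.10 (7.07 to 9.32). The median ratio over the 10 genes was 8.53 within 1 kb and 4.14 within 10 kb, compared to 1.37 and 0.990 over all genes. In the order of the ratios within 1 kb, from Fga, Fgg, F2, Fgb, Plg, Proc, F7, F10 and F5 down to Serpinc1, the intervals of every pair of neighbours overlap, so this depth did not separate any gene from the next.

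**Figure D2:**
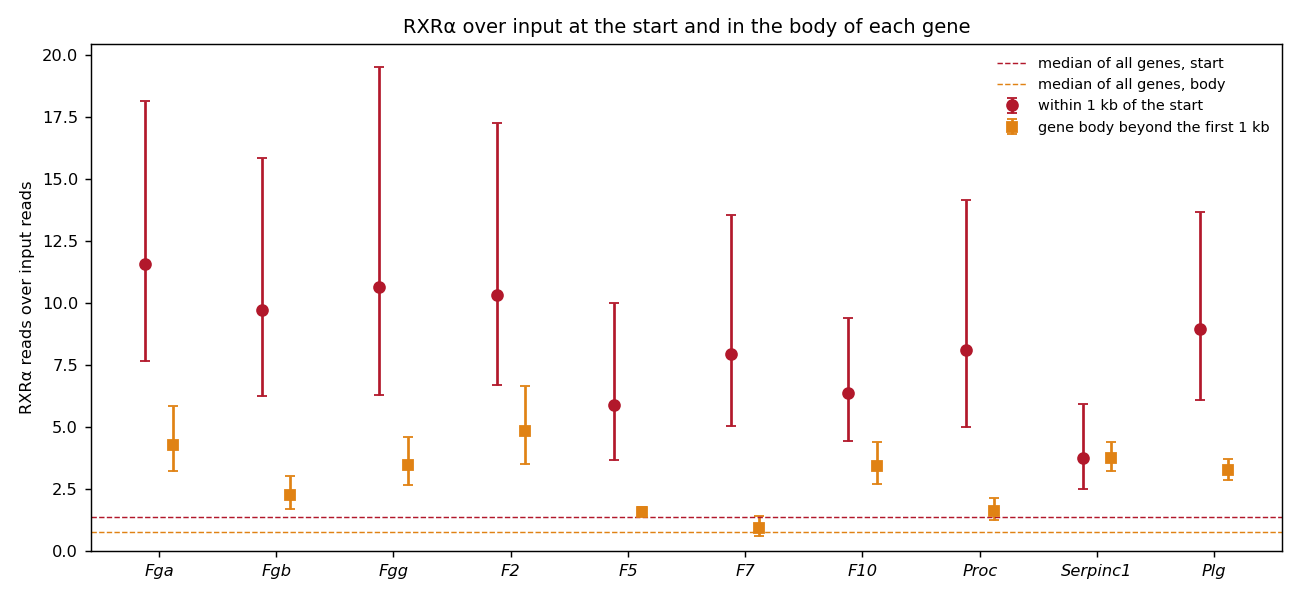
RXRα reads over input reads within 1 kb of the TSS (circles) and in the gene body beyond its first 1 kb (squares) for each gene, with 95% exact intervals that cover counting error only. Dashed lines give the medians over all protein-coding genes, 1.37 for the start and 0.770 for the body.

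Beyond the first 1 kb of the gene, RXRα reads remained more frequent than input reads at 9 of the 10 genes. The ratio in this interior part was highest in F2 with 4.83 (3.51 to 6.67) and Fga with 4.29 (3.21 to 5.86), followed by Serpinc1 with 3.75 (3.21 to 4.38). It was lowest in F5 with 1.57 (1.4 to 1.76) and F7 with 0.919 (0.586 to 1.42). The interval of F7 includes the median over all genes, 0.770, and the intervals of the other 9 genes lie above it. For 9 genes the interval of the start lies above that of the interior, and at Serpinc1 the intervals overlap, with 3.75 for both. The ratio at the start was 8.63 times that of the interior in F7, the most of the 10 genes, and 1.86 times in F10, the least after Serpinc1.

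The deposited RARα list showed a further feature of the fibrinogen genes, namely that peaks followed each other almost without a gap over the whole transcribed unit. Peaks with a score greater than 20 covered 98.6% of the body of Fga, 98.5% of Fgb and 98.7% of Fgg, and the peaks of a run lay 10 bp apart. Neither trait was particular to these genes. In the whole list, 35.5% of neighbouring peaks lay 10 bp apart. In 9 hepatocyte marker genes, peaks with a score greater than 20 covered a median of 93.2% of the body, compared to 0% over all genes. The longest run of Fga had 15 listed peaks over 10000 bp, that of Fgb 19 peaks over 10790 bp and that of Fgg 16 peaks over 10621 bp, each starting at the promoter and ending beyond the other end of the gene. When abutting peaks were merged, the cluster held 10 filtered peaks instead of 52.

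**Figure D3:**
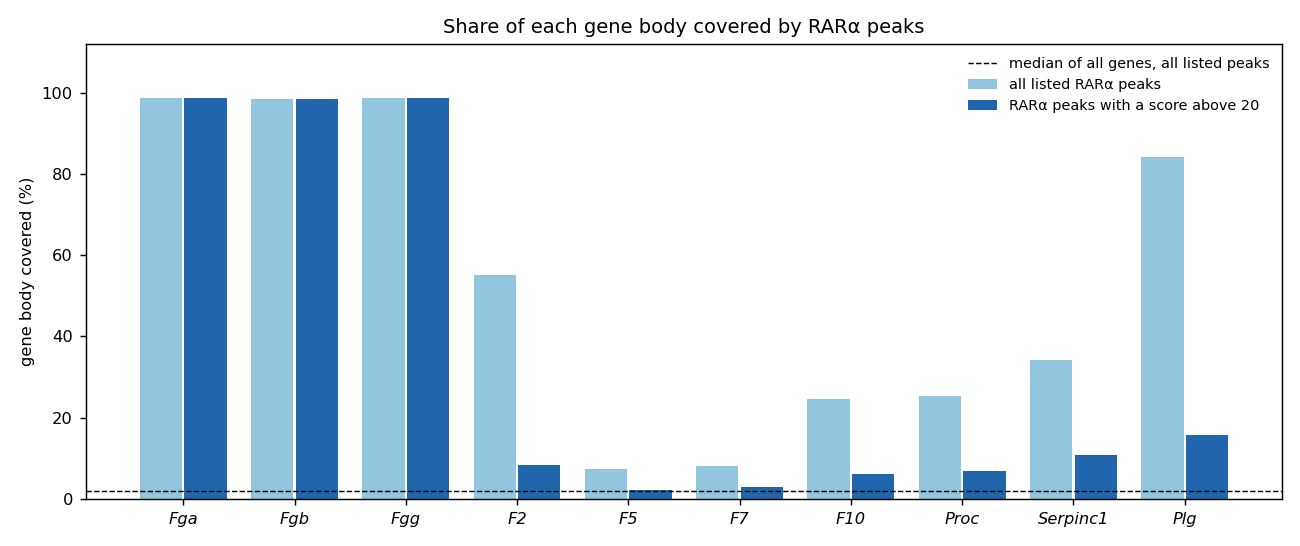
Percentage of each gene body covered by RARα peaks of the deposited list (light bars) and by those with a score greater than 20 (dark bars). The 3 fibrinogen genes are covered nearly completely by both sets, Plg and F2 mainly by peaks with lower scores, and the dashed line gives the median of all genes for the full list, 1.84%.

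At the other genes, the RARα cover of the body depended on the score. All listed peaks together covered 84.1% of Plg, which held 115 of them in its body, and 55.2% of F2, but peaks with a score greater than 20 covered 15.6% and 8.31%, respectively. Cover by all listed peaks was 34.2% in Serpinc1, 25.3% in Proc, 24.7% in F10, 8.05% in F7 and 7.47% in F5. More than 50% of the body was covered in 5 of the 10 genes, compared to 2.66% of all genes. The same was found in 8 of 9 hepatocyte marker genes, with a median cover of 95.1%, and in 3 of 34 other coagulation genes, with a median of 7.65%. RXRα accompanied the RARα peaks at the starts and in the bodies to different extents. Of 13 filtered peaks with a summit within 500 bp of a TSS, 12 co-localized with an RXRα region and the median RXRα enrichment of the 13 was 12.1. Of 55 peaks in the bodies beyond 500 bp, 17 co-localized and the median enrichment was 2.89. Over all filtered peaks, wherever they lay, 32.2% co-localized. These were not split by position, so whether the contrast is particular to the 10 genes was not tested. Most of the 55 body peaks belong to the fibrinogen genes and Plg, and peaks of a run are not independent. At Serpinc1 it was the other way round, since its filtered body peaks co-localized and the peak over its start did not.

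**Figure D4:**
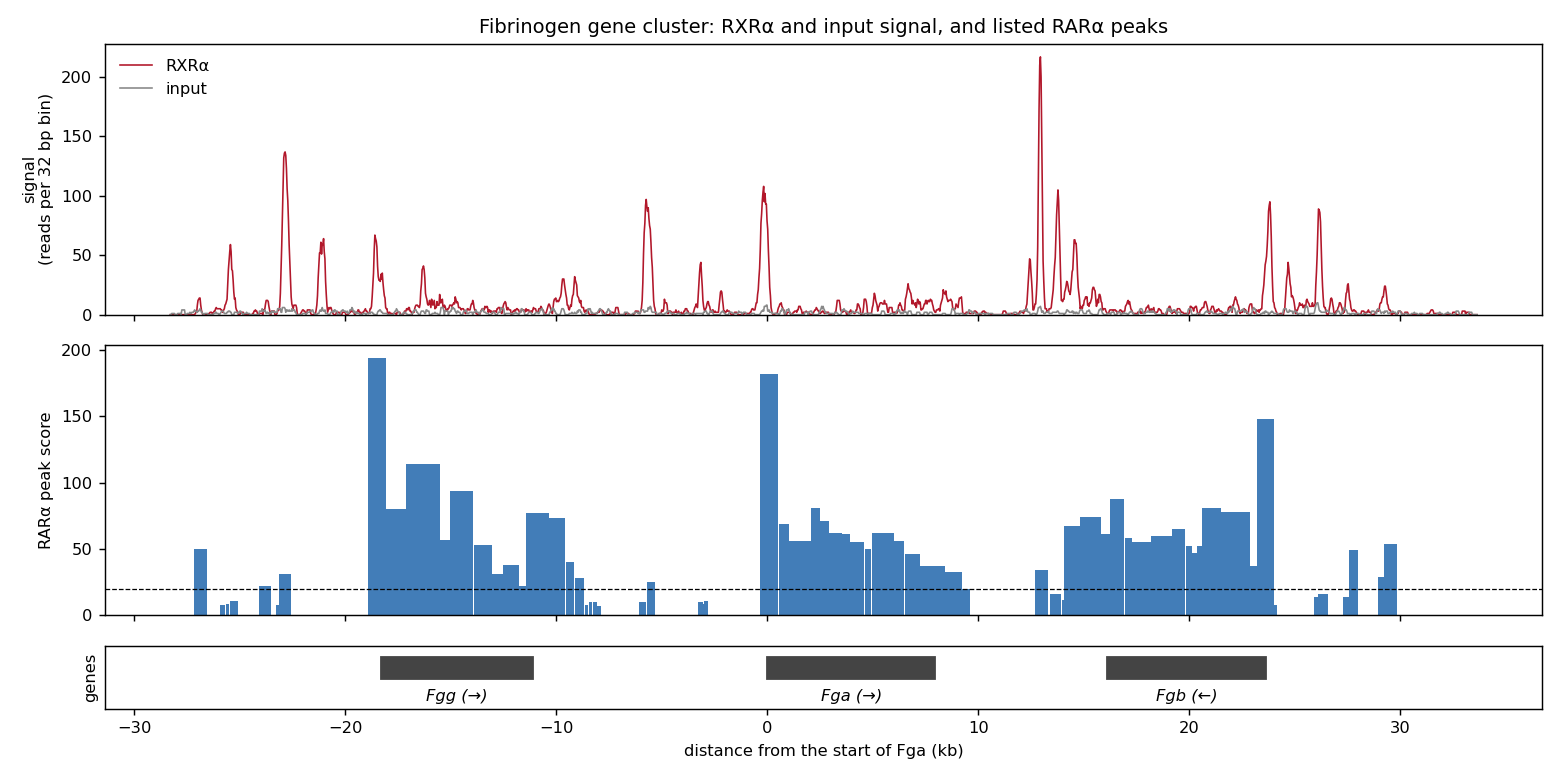
The fibrinogen gene cluster, with distance from the TSS of Fga in kb. From top to bottom are RXRα (red) and input (grey) signal in reads per 32 bp bin, all listed RARα peaks as blocks whose height is the score with a dashed line at 20, and the gene bodies with arrows for the direction of transcription. RARα blocks fill the gene bodies, and the tallest RXRα maximum, 217 reads, lies between Fga and Fgb.

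Across the fibrinogen cluster, RARα and RXRα were thus distributed differently. In the 61945 bp from 10 kb outside Fgg to 10 kb outside Fgb (chr3:82801781-82863725), there were 52 filtered RARα peaks, 29 RXRα regions and 19 co-localized RARα peaks, and the RXRα to input ratio was 5.98 (5.49 to 6.52). The RXRα ratio was higher in each stretch outside the genes than in the gene bodies, although not every interval was separate. The ratio was 11.7 (9.21 to 15.1) between Fga and Fgb, 7.20 (5.89 to 8.93) between Fgg and Fga and 6.49 (5.31 to 7.97) in the 10 kb before Fgg. In the 10 kb beyond Fgb it was 5.67 (4.55 to 7.16), an interval that overlaps those of the Fga and Fgg bodies. The interval of the 10 kb before Fgg also overlaps that of the Fga body. The stretches outside the genes include the RXRα regions just upstream of the TSS of Fgg, Fga and Fgb. In the bodies, the ratio was 4.33 (3.32 to 5.68) for Fga, 3.61 (2.81 to 4.71) for Fgg and 2.63 (2.03 to 3.44) for Fgb. RARα peaks with a score greater than 20 covered nearly all of each body but 47.2% of the stretch between Fga and Fgb, 28.5% between Fgg and Fga, 24.2% before Fgg and 17.6% beyond Fgb. The bodies, with the fullest RARα cover, had the lower RXRα ratios, and the stretch between Fga and Fgb, which are transcribed toward each other, had the highest.

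By reads in a bin, the highest RXRα signal of the cluster lay between the ends of Fga and Fgb, more than 10 kb from either start. The highest ratios, 144.4 and 111.2, lay at the starts of Fgb and Fgg. Their bins held 87 and 67 RXRα reads and 0 input reads, so these ratios are to the mean input and depend on that floor. The region between the ends of Fga and Fgb (chr3:82842497-82843200) had 217 RXRα reads in its highest bin against 7 in the input. It had a highest ratio of 76.3 and co-localized with a RARα peak of score 34. A region upstream of Fgg (chr3:82807041-82807392, at -4565) had 137 reads against 5 and a RARα peak of score 31. Another, upstream of Fga (chr3:82824225-82824416, at -5755), had 97 reads against 3 and a RARα peak of score 25. These distal sites, with reads per bin in the range of the starts or above it, had lower RARα scores than the peaks over the starts. The exact DR1 printed above lies at the region at -9099 from the TSS of Fga, which had 29.0 times input and a RARα peak of score 28. Upstream of Fgb, the RXRα regions at -1043, -2563 and -3875 did not co-localize, and the RARα peaks from -4100 to -5750, with scores of 49, 29 and 54, are nearer to the TSS of Plrg1, a splicing factor gene whose TSS is 5719 bp from that of Fgb.

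Counted once each, the windows and bodies of the 10 genes held 87 filtered RARα peaks and 61 RXRα regions. Of the RARα peaks 38 were co-localized, or 43.7%, compared to 32.2% of all 32946 filtered peaks. Of the RXRα regions 38 were co-localized, or 62.3%, compared to 25.1% of all 42117 regions. Filtered RARα peaks covered 98.5% to 98.7% of the fibrinogen gene bodies, so nearly any RXRα region there counts as co-localized. The share of 62.3% therefore follows in part from the RARα cover. The peaks of 1 run are not independent of one another, and 17 of the 61 regions were a single bin. In 36 regions the highest bin had no input read, and the ratio there rests on the genome mean of the input.

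Consensus response elements were rare at these sites. Exact repeats, built from the half-sites AGGTCA and GGGTCA as well as AGTTCA and GGTTCA with a spacing of 1 to 5 bases and read on both strands, were found within 100 bp of 1 of 87 RARα summits (1.15%, compared to 0.677% of all filtered peaks) and of 2 of 61 highest RXRα bins (3.28%, compared to 2.98% of all regions). These were the DR1 between Fgg and Fga, which served both sets, and the DR2 upstream of F2. With up to 2 mismatches to a pair of AGGTCA half-sites, a DR1-like repeat was present at 7 of 61 RXRα bins (11.5%, compared to 12%), a DR2-like one at 5 (8.20%, compared to 6.19%) and a DR4-like one at 5 (8.20%, compared to 6.37%). At the RARα summits, a DR1-like repeat was present at 5 of 87 (5.75%, compared to 4.16% of all filtered peaks), a DR2-like one at 6 (6.90%, compared to 2.58%) and a DR4-like one at 3 (3.45%, compared to 3.32%). The exact DR2 counts among the DR2-like repeats, whereas the exact DR1 has more than 2 mismatches to AGGTCA and does not count among the DR1-like ones. The highest RXRα bin of a region is here the one with the highest ratio over input. Repeats of different spacing may overlap. The shares at the RXRα bins were near those of all regions, and at the RARα summits the DR2-like repeat stood furthest from its background. A missing match says only that the letters are not in the window.

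In the promoters, taken as 250 bp before to 50 bp after the TSS, the HNF1-like motif was the most frequent match. It was present in 4 of 10 genes, F2, Fga, Fgb and Plg, compared to 1.17% of all promoters of the same length. Its distance from the TSS, given by its first base, was -42 in F2, -50 in Fga, -52 in Plg and -96 in Fgb. A DR1-like repeat was found in F7 and Proc, compared to 3.26% of all promoters, and a DR2-like repeat in F2, Fgg and Proc, compared to 2.35%. The F2 promoter held both an HNF1-like and a DR2-like match, which did not overlap. Its DR2-like match lay 8 bp from the centre of the bin with the highest RXRα ratio of the region. The bin with the most RXRα reads is centred at -53, between the DR2-like match at -84 to -71 and the HNF1-like match at -42 to -30. A match is a description of the sequence and does not show that a factor bound there.

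The 34 other genes of clotting and its control were listed by function. A RARα peak was present at 21 of them, an RXRα region at 23 and a co-localized peak at 14, compared to 52.2%, 39.8% and 23.5% of all genes. The median RXRα to input ratio within 1 kb was 3.03, compared to 1.37 over all genes. For these genes, regions and highest ratios were sought only within 10 kb of the TSS. Each highest ratio is that of a single bin. Where that bin holds no input read, as at Proz, the ratio rests on the genome mean of the input. Of 10 procoagulant genes, 5 had a RARα peak, which is near the share of all genes, 6 an RXRα region and 4 a co-localized peak. The highest RXRα ratio was 106.2 at Kng1, the gene of kininogen, and no RXRα region was found at F13a1, Klkb1 or at Vwf and F8, whose products come mainly from endothelial cells. Of 10 anticoagulant genes the counts were 7, 7 and 4. The highest ratio was that of Proz, 126.1, which is the intronic F10 region, and Apoh, Tfpi and Procr lacked a region.

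Among 9 genes of fibrinolysis and its inhibitors the counts were 5, 6 and 3, of which the RARα count is near the share of all genes. Cpb2, whose product protects fibrin from plasmin, had the highest single-bin RXRα ratio of all the coagulation genes examined, 207.4. Within 10 kb of its TSS there were 911 RXRα reads against 141 input reads, a ratio of 6.46. Plau and Plat, the plasminogen activators, and A2m had no RXRα region. Among 5 genes of the vitamin K cycle and of factor secretion the counts were 4, 4 and 3. The highest ratio was 97.9 at Mcfd2, and Lman1, which encodes the partner of Mcfd2 in the export of factors V and VIII, had no region. With RARα scores and RXRα ratios together, the other coagulation genes therefore included some as strongly bound as the 10 genes and 11 without an RXRα region within 10 kb of the TSS. Over the bodies of these 11 genes, the RXRα to input ratio ran from 0.392 in Plat to 2.63 in Lman1. The median over the bodies of all genes was 0.840. The lack of a region near the annotated TSS therefore does not describe the rest of the gene.

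The tissue label was checked against marker genes. Of 9 hepatocyte markers found, 8 had a RARα peak, 9 an RXRα region and 8 a co-localized peak. These counts were 3, 2 and 0 of 5 endothelial markers, 1, 1 and 0 of 4 stellate markers, and 1, 2 and 1 of 3 macrophage markers. The shares of all genes were 52.2%, 39.8% and 23.5%. The endothelial RARα and RXRα counts lie near these shares, so they do not set that list apart, and the lists are short. None of the 5 genes of tissues other than liver had a RARα peak or an RXRα region.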

How the data were processed

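ChIP libraries of RXRα and RARα and an input library were made from wild type mouse liver, 1 each, and the groups were taken from the labels. Per the labels, the authors used CASAVA 1.4 and Bowtie for all libraries and MACS for RARα. Of the RXRα and input libraries, the authors deposited the signal, which is whole-number coverage in bins of 32 bp. Its sum over each of 22 chromosomes was a multiple of 5, the bins that 1 read covers, so reads are the summed signal divided by 5. This gave 9999939 reads of RXRα and 9999292 of input. For RARα the authors deposited a score per peak, whose definition is not stated in the list, and a false discovery rate in percent, which was not used as a filter. The study's methods name mm10 for alignment and NCBI37/mm9 for annotation. The signal headers name mm9 and 0 RARα peaks lay beyond an NCBI37 chromosome end, so NCBI37 was used.

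RXRα was scaled to the mean of the input. Bins at 20 times input, with the genome mean of 0.603 per bin as the least input, were joined within 200 bp. RARα peaks with a score greater than 20 were placed by their summit and RXRα regions by their midpoint. The gene start is the 5′ end in GENCODE M1, without mitochondrial genes. RXRα enrichment at a peak is RXRα over input across the peak, with the same least input. No test was made, since there was 1 library per antibody. Shares of all genes, peaks or windows are given as background. Region detection was tested on simulated data. The named genes were the 10 members, the gene with the highest RXRα ratio and the genes without a region in each list, and other genes nearest to a site. The members and lists were chosen with earlier results of these data known. RXRα regions of at least 2 bins, repeats with mismatches, the upstream side and the body cover were added after seeing the data. Alternatives were RARα scores of 0 and 50, RXRα at 10 and 30 times input, other distances, joins, overlaps and starts, and merged peaks. The tools were pandas 2.3.3, numpy 2.4.6, pysam 0.24.0, scipy 1.17.1 and matplotlib 3.10.9 under Python 3.11.15. PXR, LXR, FXR and PPARα binding and gene expression were not analysed here.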

Additional observations from a re-analysis of the deposited data

How the results depend on the processing

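The counts of genes depended mainly on the RARα score. With scores greater than 50, 5 of the 10 genes kept a RARα peak and 5 a co-localized one, compared to 24.6% and 10.9% of all genes, and Serpinc1, F5, Plg, Proc and F7 lost theirs. The cluster then had 34 RARα peaks and 11 co-localized ones, and of the other coagulation genes 13 had a RARα peak and 8 a co-localized one. With RXRα at 30 times input, 9 genes kept a region, compared to 27.9% of all genes, F10 being lost. The cluster then had 17 regions and 11 co-localized peaks. Of the other coagulation genes 9 had a co-localized peak, compared to 14.9% of all genes. With RXRα at 10 times input, the cluster had 31 co-localized peaks. Merging abutting peaks left 10 RARα peaks in the cluster, and regions of at least 2 bins numbered 19. The median RXRα to input ratio of 8.53 was 4.14 over 10 kb and 3.44 over the body. With 50 bp in place of 100 bp around each site, 0 RARα summits and 1 RXRα bin had an exact repeat. Under the other alternatives run for the 3 counts of genes, 9 or 10 of the 10 genes kept each kind of site. Of 310 recomputed values of single genes, 215 stayed within 1.5 times their value and 95 did not, and 13 of the 310 fell to 0. The depth of the tracks limits the order of the genes, and with 1 library per antibody no library could be left out. No paired analysis was possible because the labels give no replicate numbers shared between the groups and no result comes from a test.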
